A study of Mus musculus with 13 samples.

Results

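*Gm14288* and 9 related genes were followed across glomerular RNA-Seq libraries of mice with experimental membranous nephropathy (MN). The 10 genes were taken by name: *Gm14288*, *2210418O10Rik*, *Gm14296*, *Gm14305*, *Gm14322*, *Gm14325*, *Gm14326*, *Gm14391*, *Gm14393* and *Gm14399*. All 10 had a row among the 35967 gene symbols of the expression table. *Gm14288* was selected on its difference between control and MN mice in these libraries, so its own values in those comparisons are given as a description and without a test. Wild type Balb/c mice received 2.0 mg of rabbit IgG intraperitoneally. Control mice (n = 5) received preimmune IgG and were collected at day 1 or day 5, and the day of each control mouse was not used here. MN mice received anti-THSD7A IgG and were collected at day 1 (n = 4) or day 5 (n = 4). The study's methods state that the MN model was studied in male mice alone. They give an age for this model beside the knockout lines and their littermates, and not beside mice named wild type Balb/c. Each library came from the isolated glomeruli of 1 mouse, and expression is given in TPM, a transcript's abundance per length that sums to nearly the same total in each library. The deposited table held no read counts, so the depth of each library is unknown.

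THSD7A is a podocyte protein and a target of autoantibodies in human MN. Zinc finger proteins of the C2H2 type bind DNA through repeated fingers, and the mouse genome holds large clusters of such genes, many of which also encode a KRAB domain. KRAB zinc finger proteins recruit the corepressor TRIM28 and histone methyltransferases to silence chromatin, often at transposable elements. Their clusters grew by duplication, so neighbouring genes can share long stretches of sequence, and short reads from such stretches can be assigned to more than 1 gene.

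The sequences of the genes were compared first, since each TPM rests on reads that a program had to divide among similar transcripts. In GENCODE release M39 of the GRCm39 build, all 10 genes lay on chromosome 2 within 2.7 Mb, 7 on the minus strand and 3 on the plus strand. *Gm14288* occupied chr2:175580129-175592886 on the minus strand. Its longest transcript had 3438 bases in 3 exons, and its best alignments to the other 9 genes had an identity of 82.9% to 90.4% over 34.7% to 56.5% of that transcript. The 9 genes were therefore relatives of *Gm14288* rather than near-identical copies of it. The closest gene was *Zfp1009* at chr2:175116856-175132453, which has no row of that name in the table. A *Zfp1009* transcript of 3416 bases matched the *Gm14288* transcript without a mismatch from its base 23 to its end. The annotated coding sequences were also searched for the cysteine and histidine spacing of a C2H2 finger. *Gm14399* encoded up to 18 fingers, *Gm14391* 16, *Gm14326* 15, *Gm14305* and *Gm14325* 14 each, and *Gm14322* 8. *Gm14288* and *Gm14393* encoded at most 3, and *2210418O10Rik* and *Gm14296* at most 1. In *Gm14288* the 3 fingers were in 1 of its 4 transcripts, and its longest transcript had a short coding sequence with 0. By this search, fingers were thus absent from most annotated transcripts of *Gm14288*, which was not particular to it. The same held for the coding transcripts of *Gm14296*, *Gm14305*, *Gm14325*, *Gm14326*, *Gm14391*, *Gm14393* and *Gm14399*. In *Gm14322* and *2210418O10Rik* as many coding transcripts had a finger as lacked one.

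The coding sequence of that longest *Gm14288* transcript is shown because it occurred whole in 3 genes, *Gm14288*, *Zfp1009* and *Zfp968-ps*, so a read inside it cannot be placed in any of them by sequence. It has 192 bases without its stop codon and is read on the minus strand across exons between chr2:175584264-175592754 (GRCm39), with its start codon in capitals.
*Gm14288* coding sequence: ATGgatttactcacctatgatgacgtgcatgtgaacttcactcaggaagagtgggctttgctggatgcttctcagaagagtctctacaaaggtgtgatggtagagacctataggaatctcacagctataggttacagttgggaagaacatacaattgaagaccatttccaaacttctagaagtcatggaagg

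Bases before the transcription starts were taken from RefSeq, whose tables use GRCm38.p6, and were located in GRCm39 by exact match on chromosome 2. RefSeq start windows were found for 8 of the 10 genes, and *Gm14296* and *Gm14399* were not matched. The 3 stretches printed here lie upstream of both the RefSeq and the GENCODE start, with the letters CCAAT, searched on both strands, in capitals. They show *Gm14288*, a member whose window occurred at 2 places (*2210418O10Rik*) and a member whose window occurred once (*Gm14305*).
*Gm14288* (chr2:175592887-175593081, minus strand): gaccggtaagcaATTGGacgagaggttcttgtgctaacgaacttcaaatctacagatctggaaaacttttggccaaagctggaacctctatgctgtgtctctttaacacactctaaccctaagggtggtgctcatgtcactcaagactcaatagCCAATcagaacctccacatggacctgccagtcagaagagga
*2210418O10Rik* (chr2:175968108-175968357, plus strand): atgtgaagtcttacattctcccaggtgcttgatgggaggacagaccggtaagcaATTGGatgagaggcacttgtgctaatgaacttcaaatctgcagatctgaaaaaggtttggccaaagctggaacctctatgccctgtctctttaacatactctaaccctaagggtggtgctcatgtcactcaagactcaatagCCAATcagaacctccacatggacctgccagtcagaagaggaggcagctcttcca
*Gm14305* (chr2:176399896-176400091, plus strand): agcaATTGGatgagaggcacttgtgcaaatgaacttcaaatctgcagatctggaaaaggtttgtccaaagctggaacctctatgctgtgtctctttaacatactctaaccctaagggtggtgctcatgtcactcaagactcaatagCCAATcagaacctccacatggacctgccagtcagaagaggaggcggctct

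The 300-base *Gm14288* window occurred at 3 places on chromosome 2, the starts of *Gm14288*, *Zfp1009* and *Zfp968-ps*. The *2210418O10Rik* window occurred at 2 places, its own start and that of *Gm14296*. *Gm14391* shared its window with *Gm6710*, and the windows of *Gm14305*, *Gm14322*, *Gm14325*, *Gm14326* and *Gm14393* each occurred once. The *Gm14288* window was identical to that of *Gm14305* at 95.5% of 292 aligned positions, to that of *Gm14325* at 95.0% of 280, to that of *2210418O10Rik* at 95.0% of 258, to that of *Gm14326* at 94.6% of 299 and to that of *Gm14391* at 94.5% of 236. It was identical to that of *Gm14322* at 78.0% of 291 and to that of *Gm14393* at 50.3% of 292. Windows were compared without gaps at shifts of at most 100 bases, a range chosen after seeing the data. CCAAT was in the 250 bases before the start in 8 of 8 members and in 33.8% of all 32851 RefSeq windows, which describes their shared sequence and does not show a binding site.

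Words of 31 bases, the default length with which kallisto matches reads, were then counted in all transcripts of each gene and searched in all other annotated genes. None of the 4029 words of *Gm14288* was unique to it. *Zfp1009* held 98.0% of them, *Zfp968* 61.1%, *Zfp969* 59.7%, *Zfp968-ps* 48.0% and *Zfp967* 44.8%. The same count gave 0 unique words for *2210418O10Rik*, all of whose 3904 words occurred in *Gm14296*, and its 3823-base transcript was identical to a *Gm14296* transcript. The unique share was 10.1% in *Gm14305*, 12.9% in *Gm14399*, 16.1% in *Gm14322*, 28.5% in *Gm14325*, 29.1% in *Gm14393*, 39.1% in *Gm14296*, 41.7% in *Gm14326* and 53.6% in *Gm14391*. *Gm14288* shared at most 9.7% of its words with any other member, *Gm14326*. Its relatives by sequence were thus mainly genes outside the 10. These words come from a C57BL/6J reference, whereas the mice were BALB/c, and bases that differ between the strains were not examined.

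**Figure D1:**
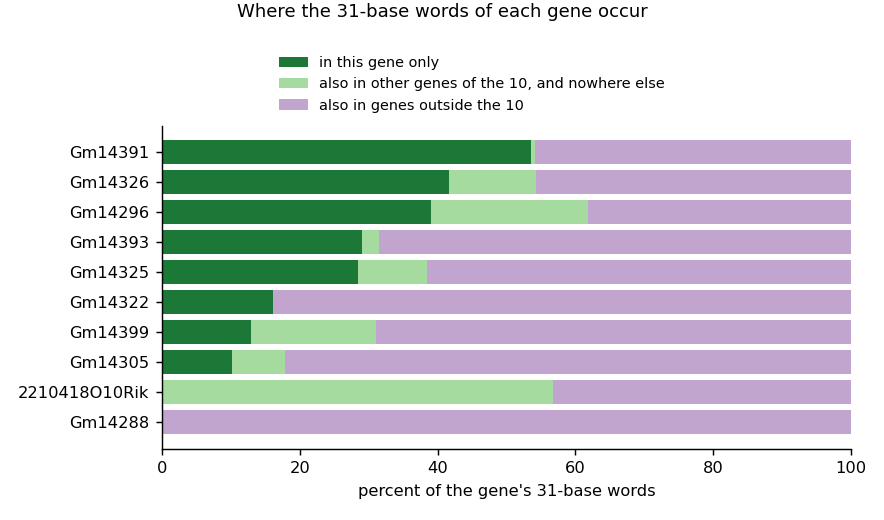
Percent of each gene's 31-base words (x axis) that occur in that gene only, also in other genes of the 10 and nowhere else, or also in genes outside the 10. *Gm14288* has no unique word, *2210418O10Rik* has none either, and *Gm14391* has the highest unique share (53.6%).

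*Gm14288* was near 0 in control mice and above 0.5 TPM in every MN mouse. Control replicates 1 to 5 had 5.94e-10, 0.00344, 4.61e-09, 0.000216 and 4.65e-05 TPM. At day 1, MN replicates 1 to 4 had 3.44, 0.739, 3.31 and 2.51 TPM. At day 5, they had 3.72, 2.17, 3.30 and 0.571 TPM. The groups did not overlap, and replicate 2 at day 1 and replicate 4 at day 5 were the low MN libraries. The mean was 2.50 ± 1.24 TPM at day 1 (SD, n = 4) and 2.44 ± 1.41 TPM at day 5 (SD, n = 4). Among all 35967 rows, *Gm14288* was the 1 row below 0.01 TPM in every control library and at or above 0.5 TPM in every MN library, and 0 rows showed the opposite pattern. The row had been selected on this same difference, and both limits lie close to its own values. The count therefore describes the row and lends it no support. Its fitted log2 fold change, on the scale of log2(scaled TPM + 0.5), was 2.46 ± 0.41 (SE) at day 1 and 2.39 ± 0.41 at day 5. That size depends on the added constant, since controls were near 0: with 0.1 added it was 4.51 at day 1 and 4.40 at day 5, and with 1 added it was 1.73 and 1.67. No fold against the near-zero controls is given. Between day 5 and day 1 MN mice the log2 difference was -0.08 ± 0.44 (SE), which did not pass the test (adjusted p = 0.962 by limma).

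The row *Gm14440* showed the reverse. This gene is not among the 10 and was picked after the values had been seen. It has a row in the table and a RefSeq start window, but no entry in GENCODE release M39. Its RefSeq window was identical to that of *Gm14288* at 299 of 299 aligned positions and occurred at the same 3 places. Whether its row stands for the *Zfp1009* locus was not settled here. *Gm14440* had 4.18, 5.67, 3.44, 4.95 and 3.82 TPM in control replicates 1 to 5. In day 1 MN replicates 1 to 4 it had 1.83e-05, 3.14, 2.55 and 2.06 TPM. In day 5 MN replicates 1 to 4 it had 0.0159, 2.26, 1.58e-07 and 2.58 TPM. Every MN library lay below every control library. The 3 MN libraries with *Gm14440* near 0, day 1 replicate 1 and day 5 replicates 1 and 3, each had at least 3.30 TPM of *Gm14288*. Conversely, the libraries lowest in *Gm14288*, day 1 replicate 2 and day 5 replicate 4, had the highest *Gm14440* of their group. Its fitted log2 fold change was -1.28 ± 0.65 (SE) at day 1 and -1.96 ± 0.65 at day 5, given without a test because the gene was picked for its values.

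Summed, both rows overlapped between the groups. Control replicates 1 to 5 had 4.18, 5.68, 3.44, 4.95 and 3.82 TPM in the sum. Day 1 MN replicates 1 to 4 had 3.44, 3.87, 5.87 and 4.57 TPM. Day 5 MN replicates 1 to 4 had 3.73, 4.43, 3.30 and 3.15 TPM. The lowest and highest sums of control and day 1 MN mice were nearly the same, and 2 day 5 libraries lay below the lowest control. Means were 4.41 ± 0.90 TPM in controls (SD, n = 5), 4.44 ± 1.06 at day 1 (SD, n = 4) and 3.65 ± 0.57 at day 5 (SD, n = 4). Fitted as 1 row, a setting chosen after seeing the data, the pair had a log2 fold change of 0.04 ± 0.17 (SE) at day 1 and -0.20 ± 0.17 at day 5. The groups thus differed in how the TPM of the pair was divided, while the sums overlapped. The share of *Gm14288* was at most 0.0606% in control mice. In day 1 MN replicates 1 to 4 it was 99.9995%, 19.1%, 56.5% and 54.9%, and in day 5 MN replicates 1 to 4 it was 99.6%, 48.9%, 100% and 18.1%. Over all 13 libraries the correlation of *Gm14288* with *Gm14440* was -0.78 (Pearson, log2 scale), and over the 8 MN libraries it was -0.66. These are descriptions over libraries that share the groups, and *Gm14440* ranked 92 from the lowest among all tested genes. The cause of the shift between the rows was not tested.

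**Figure D2:**
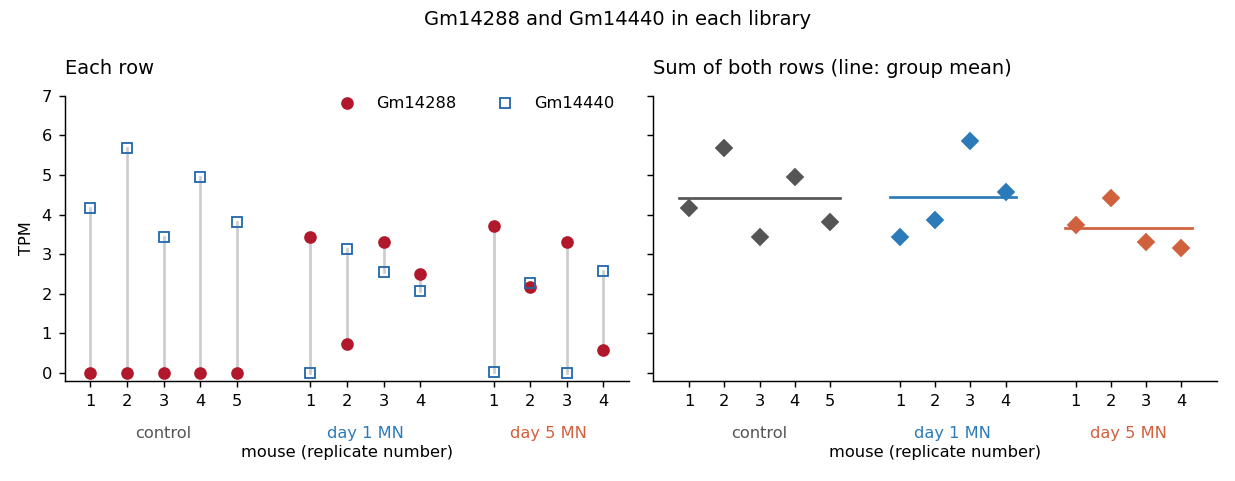
TPM of *Gm14288* and *Gm14440* in each of the 13 libraries (left) and the sum of both rows with group means as lines (right). *Gm14288* is near 0 in all 5 control libraries and *Gm14440* is near 0 in 3 MN libraries, whereas the sums run from 3.15 to 5.87 TPM and overlap between groups.

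*Zfp968-ps*, the third gene with the same start window, has a row of its own. It ranged from 0.281 to 2.59 TPM in controls, from 0.315 to 0.642 TPM at day 1 and from 0.347 to 2.58 TPM at day 5, and the groups overlapped. Its correlation with *Gm14288* was -0.26 over 13 libraries. With *Zfp968-ps* added, the sum was 5.69 ± 1.53 TPM in controls (SD, n = 5), 4.89 ± 0.99 at day 1 (SD, n = 4) and 4.78 ± 1.49 at day 5 (SD, n = 4), again overlapping. *Zfp968*, which held 61.1% of the *Gm14288* words, had log2 fold changes of 0.13 ± 0.27 (SE) at day 1 and -0.31 ± 0.27 at day 5, and *Zfp967* had -0.21 ± 0.15 and -0.17 ± 0.15, none past the test.

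Among the members, *2210418O10Rik* was the other gene without a unique word, and its share in the sum with *Gm14296* overlapped between the groups. *2210418O10Rik* had 2.67, 2.31, 2.52, 2.29 and 3.02 TPM in control replicates 1 to 5. It had 1.61, 2.63, 2.54 and 2.61 TPM in day 1 MN replicates 1 to 4, and 2.45, 2.57, 2.78 and 2.53 TPM in the day 5 replicates. The groups overlapped, with day 1 replicate 1 below all other libraries. *Gm14296* had 5.28, 5.41, 5.80, 5.26 and 6.43 TPM in controls, 3.72, 4.70, 5.46 and 5.59 TPM at day 1, and 4.34, 5.13, 4.97 and 4.95 TPM at day 5. All 4 day 5 libraries lay below the controls, but the log2 fold change of -0.17 ± 0.13 (SE) did not pass the test (adjusted p = 0.521, limma). *2210418O10Rik* took 30.0% to 33.6% of the pair's sum in controls, 30.3% to 35.8% at day 1 and 33.4% to 36.1% at day 5. The mean share was 31.2 ± 1.5% in controls (SD, n = 5), 32.4 ± 2.4% at day 1 (SD, n = 4) and 34.8 ± 1.4% at day 5 (SD, n = 4), a difference that was not tested. Summed into 1 row, a setting chosen after seeing the data, the pair had a log2 fold change of -0.14 ± 0.12 (SE) at day 1 and -0.10 ± 0.12 at day 5. Of this pair, *Gm14296* has 39.1% unique words. The words of *Gm14440* were not counted, since it has no entry in GENCODE release M39, so the partner rows of the pairs cannot be compared in this.

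**Figure D3:**
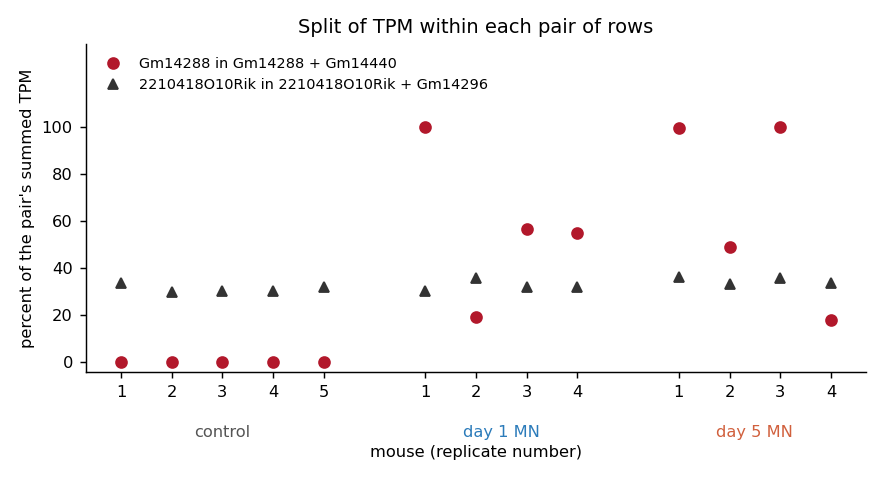
Share of *Gm14288* in its sum with *Gm14440* (circles) and of *2210418O10Rik* in its sum with *Gm14296* (triangles), in percent, for each library by group. The first share runs from near 0 to 100%, and the second stays between 30.0% and 36.1%.

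Of the 10 genes, 9 passed the filter of at least 1 TPM in at least 4 libraries, *Gm14288* through its MN libraries alone. A call needed an adjusted p below 0.05 together with a log2 fold change of more than 0.5 in either direction. *Gm14288* was chosen on these comparisons and is left out of the counts. Of the 8 others, 0 were called at day 1 by limma and 0 had an unadjusted p under 0.05, where 0.0908% of all 14322 tested genes were called. At day 5, 0 of the 8 were called and 1 had an unadjusted p under 0.05, where 3.21% of all tested genes were called. Between the days 0 of the 8 were called by limma, against 1.81% of all tested genes, and 0 had an unadjusted p under 0.05. The share of all tested genes with an unadjusted p under 0.05 was not counted, so these counts have no background. The 8 had log2 fold changes from -0.21 to 0.26 at day 1, with adjusted p values from 0.543 to 0.959 (limma), and from -0.37 to 0.26 at day 5, with adjusted p values from 0.142 to 0.924. Their median was -0.06 at day 1, where 2 were higher and 6 lower, and -0.03 at day 5, where 4 were higher and 4 lower. Over all tested genes the median was -0.0029 and -0.0032. In 0 of the 8 did the libraries separate without overlap at day 1, against 4.22% of all tested genes. At day 5 it was 1, *Gm14296*, against 10.8%.

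**Figure D4:**
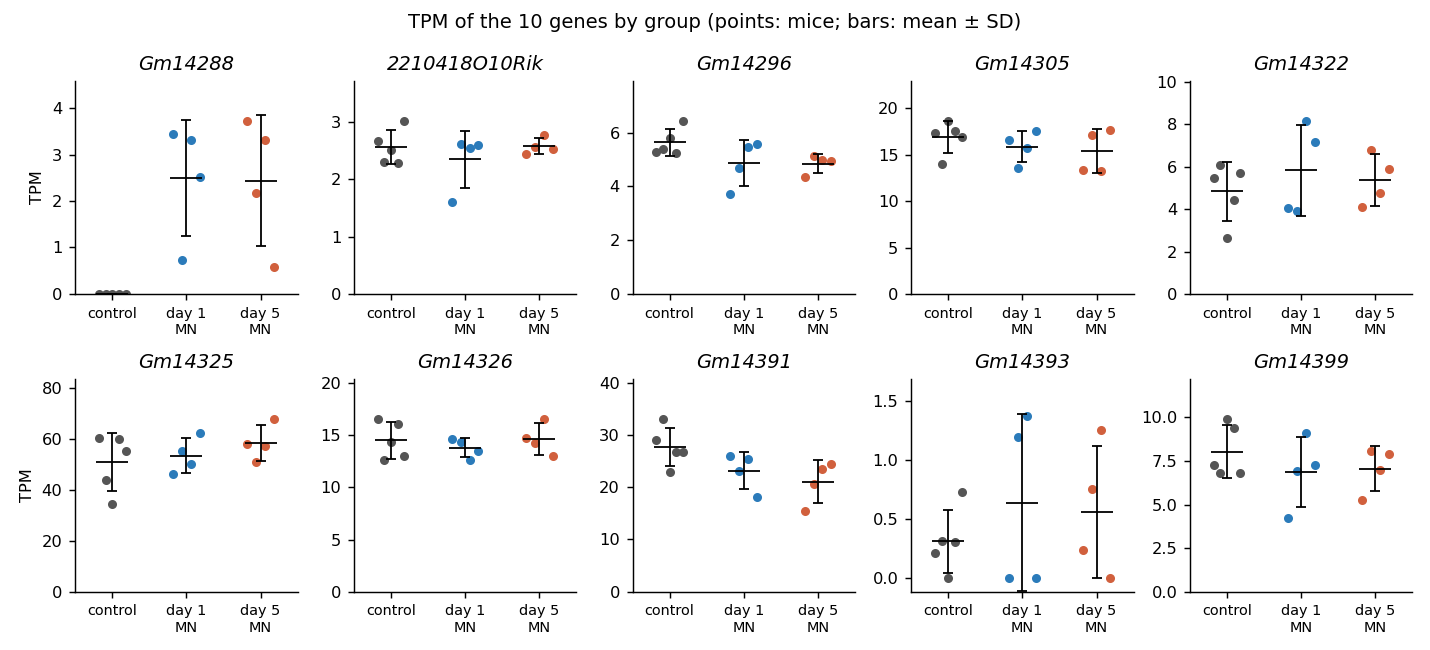
TPM of the 10 genes in control, day 1 MN and day 5 MN mice. Points are mice, and bars are the mean ± SD. *Gm14288* is near 0 in all control mice, and the other genes overlap between groups except *Gm14296* at day 5.

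*Gm14325* had the highest TPM of the 10. Of its words 28.5% were unique, so its level, like those of the other members, rests in part on how reads of shared sequence were divided. It had 60.5, 44.0, 34.4, 60.2 and 55.2 TPM in control replicates 1 to 5, 46.2, 55.4, 50.01 and 62.5 TPM at day 1, and 57.9, 51.1, 57.1 and 67.9 TPM at day 5. Control replicate 3 was the lowest library, and the groups overlapped (log2 fold change 0.26 ± 0.16 (SE) at day 5, adjusted p = 0.405, limma). *Gm14391*, the member with the most unique words, had 29.0, 33.1, 23.0, 26.7 and 26.6 TPM in controls, 26.0, 23.1, 25.3 and 18.2 TPM at day 1, and 15.4, 20.6, 23.6 and 24.5 TPM at day 5. It had the lowest log2 fold change among the 8, -0.37 ± 0.13 (SE) at day 5, with an unadjusted p of 0.0174 and an adjusted p of 0.142 (limma). The day 5 values of *Gm14391* overlapped with the lowest control library. *Gm14305* and *Gm14326* followed, with means of 16.9 ± 1.7 and 14.5 ± 1.8 TPM in controls (SD, n = 5), and varied 1.40-fold and 1.31-fold between the lowest and highest of all 13 libraries. *Gm14399* had 8.04 ± 1.50 TPM in controls (SD, n = 5) and 4.21 TPM in its lowest library, day 1 replicate 1. *Gm14322* varied more, from 2.62 to 8.14 TPM over the 13 libraries, with the lowest value in a control mouse and the highest at day 1. *Gm14393* did not pass the filter. It was listed at 0 in 4 of 13 libraries, 1 control, 2 at day 1 and 1 at day 5, and reached 0.727 TPM in controls, 1.37 TPM at day 1 and 1.26 TPM at day 5.

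In order of mean control level, *Gm14325* (50.9 ± 11.4 TPM) and *Gm14391* (27.7 ± 3.7) were separated in every control library, and so were *Gm14391* and *Gm14305*. *Gm14305* and *Gm14326* overlapped over the control libraries, as did *Gm14296* (5.63 ± 0.49) and *Gm14322* (4.85 ± 1.39). *Gm14399* lay above *Gm14296* in every control library, by ranges of 6.82 to 9.92 and 5.26 to 6.43 TPM. *2210418O10Rik* (2.56 ± 0.30), *Gm14393* (0.31 ± 0.26) and *Gm14288* (0.00074 ± 0.0015) were the lowest (SD, n = 5 for each value). This order can depend on how reads of shared sequence were divided, which was not tested.

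The summed TPM of the 10 genes was 111.2 to 144.2 in control libraries, 120.4 to 136.8 at day 1 and 121.5 to 144.9 at day 5, so the groups overlapped. *Gm14325* made up 30.9% to 47.7% of the sum over the libraries. *Gm14288* made up 0.584% to 2.86% of it at day 1 and 0.394% to 3.06% at day 5. The log2 difference of the scaled sum from control was 0.03 at day 1 and 0.05 at day 5, and it was 0.00 and 0.02 without *Gm14288*. Among the 8 tested members other than *Gm14288*, pairwise correlations over the 13 libraries ran from -0.45 (*Gm14322* and *Gm14326*) to 0.74 (*2210418O10Rik* and *Gm14296*). The genes share libraries and, in part, reads.

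**Figure D5:**
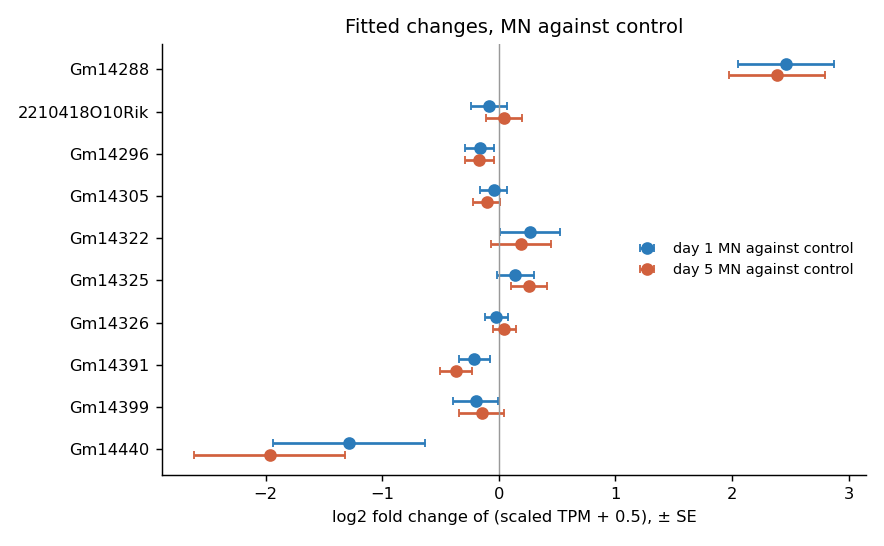
Fitted log2 fold changes (x axis, log2 of scaled TPM + 0.5, ± SE) of the 9 tested members and *Gm14440* at day 1 and day 5 against control. *Gm14288* lies at 2.46 and 2.39, *Gm14440* at -1.28 and -1.96, and the other genes between -0.37 and 0.26.

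Other genes around the members were taken by symbol: those starting with Zfp or Gm14 within the members' span widened by 1 Mb on each side. There were 52, of which 25 are annotated as protein coding and the others as pseudogenes, and whether each encodes fingers was not examined. Of the 52, 19 passed the filter. By limma, 0 of the 19 were called at day 1, against 0.0908% of all tested genes, and 0 at day 5, against 3.21%. At each day 2 of the 19 had an unadjusted p under 0.05, a count without a share over all tested genes beside it. At day 1, 14 of 19 were lower, with a median log2 fold change of -0.18, and at day 5, 17 were lower, with a median of -0.25. Over all tested genes 50.8% were lower at day 1 and 50.7% at day 5. *Zfp972* was the lowest at both days, at -0.87 ± 0.33 (SE) and -0.95 ± 0.33 (adjusted p = 0.328 and 0.118, limma). It ranged from 2.71 to 9.37 TPM in controls, from 1.78 to 6.03 TPM at day 1 and from 2.06 to 3.50 TPM at day 5. *Gm14434* (0.79 ± 0.60 at day 1) and *Zfp965* (0.57 ± 0.36 at day 5) were the highest, each with overlapping groups. *Gm14410*, which holds 62.9% of the *Gm14305* words, had -0.54 ± 0.21 at day 1 and -0.25 ± 0.21 at day 5. *Gm14308*, which holds 73.8% of them, had -0.18 ± 0.32 and -0.53 ± 0.32. The rule also named *Zfp968-ps* (-0.70 ± 0.44 at day 1), the pseudogene *Gm14411* (-0.55 ± 0.27 at day 5) and *Gm14419* (-0.50 ± 0.37 at day 5). The pseudogene *Gm14421* (-0.39 ± 0.18 at day 1) and *Zfp973* (-0.35 ± 0.11 at day 5) were the others. *Zfp973* was the 1 of the 10 named whose day 5 libraries did not overlap with the controls, against 10.8% of all tested genes.

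Genes of all chromosomes named Zfp and a number were counted alongside. Of 379 in the table, 328 were tested, and 9 of these were also in the neighbouring list. At day 1, 0 were called by limma, against 0.0908% of all tested genes, and 35 had an unadjusted p under 0.05. The latter count was 51 at day 5, and the share of all tested genes at that threshold was not counted. At day 5, 3 were called, against 3.21% of all tested genes, and all 3 were lower: *Zfp641* (-0.63 ± 0.15 (SE), adjusted p = 0.0259), *Zfp457* (-0.63 ± 0.17, adjusted p = 0.0403) and *Zfp395* (-0.52 ± 0.11, adjusted p = 0.0135, limma). At both days 238 of 328 (72.6%) were lower, and their median log2 fold change was -0.08 at day 1 and -0.10 at day 5. Over all tested genes, 50.8% were lower at day 1 and 50.7% at day 5, with medians of -0.0029 and -0.0032.

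A list of 17 genes drawn up around KRAB corepressors, which also holds general chromatin and DNA methylation genes, was tested in full. At day 1, 0 were called by limma, against 0.0908% of all tested genes, and 4 had an unadjusted p under 0.05. Of the 17, 14 were lower (82.4%, against 50.8% of all tested genes), with a median log2 fold change of -0.07. *Trim28*, the scaffold that KRAB domains bind, had -0.18 ± 0.07 (SE) at day 1 and -0.24 ± 0.07 at day 5 (adjusted p = 0.349 and 0.0700, limma). *Setdb1*, its histone methyltransferase partner, had -0.10 ± 0.07 and -0.22 ± 0.07 (adjusted p = 0.553 and 0.0664, limma). At day 5, 9 of the 17 were higher and 8 lower (47.1%, against 50.7% of all tested genes), with a median of 0.01. At that day 6 had an unadjusted p under 0.05. As at day 1, this count has no share over all tested genes beside it. *Dnmt1*, the maintenance DNA methyltransferase, had 0.37 ± 0.08 (SE) at day 5 (adjusted p = 0.0127, limma), and *Chd3*, a chromatin remodeller, had -0.30 ± 0.07 (adjusted p = 0.0258, limma), both short of the fold that a call needed. At day 5, 1 of the 17 was called, against 3.21% of all tested genes. It was *Uhrf1*, which couples DNA methylation to replication. *Uhrf1* had 1.30 to 3.67 TPM in controls, 1.69 to 2.25 TPM at day 1 and 7.78 to 12.2 TPM at day 5 (log2 fold change 2.04 ± 0.21 (SE), adjusted p = 7.95e-05, limma). *Mki67*, *Top2a* and *Cdk1*, genes of dividing cells, moved with it, with a summed TPM of 10.8 to 20.3 in controls, 7.79 to 19.4 at day 1 and 72.8 to 107 at day 5. In whole glomeruli, a change in the number of cells of a type and a change in RNA per cell cannot be told apart.

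Cell type markers were summed in each library. The sum of 4 glomerular endothelial markers (*Ehd3*, *Pecam1*, *Emcn* and *Kdr*) was 4010 to 5030 TPM in controls, 3930 to 4630 at day 1 and 4690 to 5010 at day 5. For 3 mesangial markers (*Pdgfrb*, *Itga8* and *Gata3*) it was 697 to 1110, 795 to 907 and 886 to 1010 TPM. Sums of 5 tubule markers were 339 to 841 TPM in controls, 656 to 1150 at day 1 and 483 to 605 at day 5, and those of 4 leukocyte markers were 4.17 to 7.95, 4.34 to 9.71 and 5.68 to 11.8 TPM. None of these markers was listed at 0 in every library. The part of these cells in the *Gm14288* values was not tested.

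The genes whose pattern was most like that of *Gm14288* were ranked by Pearson correlation over the 13 libraries, as a description without a test. The 5 highest were *Ddr1* (0.92), *Tmed9* (0.90), *Tuba1b* (0.88), *Vim* (0.88) and *Egr1* (0.87). *Egr1*, an immediate early transcription factor, had 9.38 to 13.2 TPM in controls, 17.4 to 27.6 TPM at day 1 and 14.4 to 19.0 TPM at day 5. *Vim*, an intermediate filament gene, had 577 to 739 TPM in controls and 810 to 1148 TPM in MN mice. The 5 lowest were *Baz2a* (-0.90), *Dnajc7* (-0.89), *Atxn7* (-0.88), *Trpm4* (-0.88) and *Rbm39* (-0.87). No other member was among them, and the highest correlation of *Gm14288* with another member was 0.28, with *Gm14322*.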

How the data were processed

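Glomerular RNA of 13 mice was sequenced by the authors as paired-end reads. Per the labels, reads were processed with FastQC 0.11.9, Trimmomatic 0.39 and kallisto 0.46.2 on GRCm39, and per the study's methods with the Ensembl 104 transcripts. The authors deposited TPM values, 1 per gene symbol and library, without read counts, so the depth and counting error of each library are unknown, and the limma test on log2 values took the place of a count test. The word length used by kallisto was not given in the sources used here. An assignment program divides reads of shared sequence by estimation, so the TPM of a gene without unique words can move between near-identical transcripts.

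Groups came from the labels. The TPM of each library were scaled by a median-of-ratios factor from the 15772 genes that no library lists at 0, and log2(scaled TPM + 0.5) was used. Genes with at least 1 TPM in at least 4 libraries were tested, 14322 of 35967, with limma 3.58.1 in R 4.3.3 (1 fit of the 3 groups, mean-variance trend) and Benjamini-Hochberg adjustment within each contrast. The fit was tested on simulated data. Both contrasts against control share the 5 control libraries.

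Genes were named by a rule: the members, the 5 genes with the highest and the 5 with the lowest correlation with *Gm14288*, up to 10 neighbouring genes named Zfp or Gm14, and genes of the lists. *Gm14440* falls outside it. The podocyte marker list is not reported here. The members and lists were chosen with earlier results of these data known. Transcripts and the annotation were GENCODE M39, a later release than the one used for the table. Words of 31 bases were counted in Python 3.11.15, identities were taken with BLAST+ 2.17.0, with relatives defined by at least 70% identity over at least 50% of the *Gm14288* transcript, and plots were drawn with matplotlib 3.10.9. Replicate numbers label different mice: in 12 comparisons of libraries with the same number, the correlations of deviations from group means ran from -0.06 to 0.09. Alternatives covered the pseudocount, scaling, filter, variance model, samples in the fit, a replicate block, the call rule, each library left out, wider sums and pairs of rows fitted as 1.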

Additional observations from a re-analysis of the deposited data

Results flagged for a closer look

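The libraries of each group were compared with each other for the 10 members, *Gm14440*, its sum with *Gm14288* and the sum of the members, 39 groups in all. A library was taken as standing apart when its gap to the nearest other library, as a share of the group's range, was above Dixon's critical value, which chance exceeds in about 1 of 20 groups. There were 2 such values. *Gm14288* had 0.00344 TPM in control replicate 2 against at most 0.000216 in the other controls, all near 0. *2210418O10Rik* had 1.61 TPM in day 1 MN replicate 1 against 2.54 to 2.63 in the other day 1 libraries. In the same mouse *Gm14296*, *Gm14325*, *Gm14399* and *Gm14440* were also the lowest of their day 1 libraries, at 3.72, 46.2, 4.21 and 1.83e-05 TPM, as were the sum of *Gm14288* and *Gm14440*, at 3.44 TPM, and the sum of the members, at 120.4 TPM. Other members went the other way in that mouse: *Gm14288*, *Gm14326* and *Gm14391* were the highest of their day 1 libraries, at 3.44, 14.7 and 26.0 TPM. *Gm14393* was listed at 0 there and in 1 other day 1 library.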

How the results depend on the processing

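Under the alternatives, the count of members called at day 1, which was 1 (*Gm14288*), fell to 0 with *Gm14288* and *Gm14440* as 1 row, when each library had to reach 1 TPM, without the trend in eBayes, without a filter on low TPM, when the fit held only the 2 groups compared, and with a pseudocount of 1. In that order, 12, 10, 7, 6, 2 and 11 genes were called at day 1 over all tested genes, against 13 in the main fit. The *Gm14288* log2 fold change stayed at 2.46 without the trend, without the filter and with only the 2 groups. The count of members called at day 1 ran from 0 to 1 when a library was left out, and was 0 without any of control replicates 1 to 4, day 1 MN replicates 1, 3 and 4 or day 5 MN replicates 1 to 3. Over all tested genes, day 1 calls in those fits ran from 3 (without day 1 MN replicate 1) to 217 (without control replicate 5). At day 5 the count of members called stayed at 1 except with the pair as 1 row and when each library had to reach 1 TPM, 0 in both, where *Gm14288* itself is merged or dropped. These counts hold *Gm14288*, which was chosen on the same comparisons, and are a description. Without it, in a count added after seeing the data, 0 members were called at day 1, at day 5 and between the days under every alternative run. Neighbouring genes called at day 5 ran from 0 to 1 when a library was left out, with *Zfp972* called without control replicate 4 (chosen to be named after its values were seen). The summed TPM of the members differed from control by 0.03 (log2) at day 1, and by -0.10 when all relatives of at least 70% identity were summed. With the pair as 1 row, the *Gm14288* log2 fold change at day 5 turned from 2.39 to -0.20. Leaving out single libraries turned the sign of small log2 fold changes, none of them called. At day 1 they ran from -0.138 to 0.056 for *2210418O10Rik* and from -0.331 to 0.003 for *Gm14399* (both above 0 without day 1 MN replicate 1), from -0.115 to 0.019 for *Gm14305* and from -0.076 to 0.029 for *Gm14326*. At day 5 they ran from -0.007 to 0.109 for *Gm14326*, and between the days from -0.455 to 0.354 for *Gm14288*. In the fit with the replicate block, its log2 fold change was 2.46 at day 1 and 2.38 at day 5, and the counts of members called were 1, 1 and 0. The block changed no other call of a member, and the numbers do not pair the mice. In that blocked fit, 149, 348 and 331 genes were called over all tested genes at day 1, at day 5 and between the days, against 13, 460 and 259 without it.

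Of 246 alternative values of the counts, sums and shares, 226 kept the main result and 20 did not, and of 526 values of single members and pairs, 510 did. Members other than *Gm14288* kept it when the sign and the call held, which a gene far from a call does over a wide range. Many of the counts were 0 in the main fit. These tallies therefore say little about how stable the sizes are. Depth is unknown, so rows near 0 have no counting error here.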
